A study of Homo sapiens with 12 samples.

Results

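The 39 genes described here encode the proteins that prepare and copy DNA and that carry a cell into S phase. They were taken by symbol from a list of replication and G1/S genes, and all 39 were found among the 16299 Ensembl genes of the deposited table. Messenger RNA was measured by poly-A RNA sequencing in PANC1 and BXPC3, 2 established human cell lines of pancreatic cancer. The culture substrate was 5% GelMA, 7.5% GelMA or collagen, where GelMA is gelatin methacryloyl, a chemically modified gelatin that is set into a hydrogel. Each of the 6 groups had 2 libraries: PANC1 in 5% GelMA, in 7.5% GelMA and in collagen, and BXPC3 in the same 3 substrates. All groups shared a high-glucose medium with foetal bovine serum and penicillin with streptomycin, and no drug or genetic change is named in the labels. Each value is a log2 RPKM, a read density per gene length and per library on a log2 scale, and each difference is a difference of mean log2 RPKM. GelMA without a percentage stands for the mean of the 4 libraries of 5% and 7.5% GelMA in a line, set against the 2 collagen libraries of that line.

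A chromosome is copied from many origins, and each origin is prepared before it is used. In G1 the origin recognition complex, CDC6 and CDT1 place rings of MCM2 to MCM7 on DNA, a step called licensing. At the start of S phase the CDC7 kinase with its partner DBF4, together with cyclin-dependent kinases, turns each ring into an active helicase by adding CDC45 and the GINS complex. DNA polymerase alpha with primase starts each strand, the RFC complex loads the PCNA clamp, DNA polymerases delta and epsilon extend the strands, and FEN1 and LIG1 join the short lagging-strand pieces called Okazaki fragments. Entry into this programme is set by D-type and E-type cyclins, which release E2F transcription factors from the retinoblastoma protein, and many of the genes named here are known E2F targets. Control of this step is commonly lost in pancreatic ductal adenocarcinoma.

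All 39 genes were expressed at levels that could be tested, with values between 1.91 and 7.97 log2 RPKM over the 12 libraries, beside a median of 4.09 for the 15794 genes tested. The lines were told apart by known marks: SMAD4, a TGF-beta effector, ranged between 3.94 and 4.55 in PANC1 and between -5.92 and -5.35 in BXPC3. The mesenchymal gene VIM ranged between 11.65 and 11.93 in PANC1 and between 5.01 and 5.78 in BXPC3, and the ductal keratin KRT7 between 1.80 and 2.75 in PANC1 and between 10.24 and 10.74 in BXPC3. Replicate libraries correlated over the 15794 genes tested with r between 0.9922 and 0.9950. In some groups the replicates differed in the replication genes themselves. BXPC3 in 5% GelMA replicate 1 lay below replicate 2 in 37 of 39 genes, at a median difference of -0.16, while 50.2% of all genes tested lay below. PANC1 in collagen replicate 1 lay below replicate 2 in 30 of 39, at a median of -0.06 (51.6% of all genes below), and PANC1 in 5% GelMA replicate 1 in 11 of 39, at a median of 0.03 (50.1% of all). Over 20% of exonic bases are shared with annotated antisense genes in MCM2 and GINS4, with a gene on the same strand in POLA2, and with genes treated below in CCNE2 and TYMS, so those values are uncertain to the extent that reads were shared, and 11 other genes share less. RFC3, RFC5, PCNA, DBF4, FEN1 and TYMS have annotated pseudogenes in GENCODE 29, so reads of near-identical copies could be split and their values are uncertain too. No separate cultures are named for the replicates, so the p-values measure the spread between libraries, which may be technical. In bulk RNA, fewer cells in S phase and less of an RNA in each cell cannot be told apart.

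Set against collagen, GelMA went with higher levels of replication genes in both lines, with calls in 1 direction in BXPC3 and in both directions in PANC1. In PANC1, 18 of 39 genes rose and 4 fell, while 27.7% of all genes tested rose and 27.4% fell in that line. In BXPC3, 29 of 39 rose and 0 fell by limma, while 19.4% of all genes tested rose and 16.7% fell. At an unadjusted p under 0.05, 18 were higher and 4 lower in PANC1, and 34 higher and 0 lower in BXPC3. Without PANC1 collagen replicate 1 the PANC1 counts were 16 higher and 4 lower, and without replicate 2 they were 16 higher and 3 lower. Without BXPC3 5% GelMA replicate 1 the BXPC3 counts were 32 higher and 0 lower, and without replicate 2 they were 24 higher and 2 lower. The median difference over the 39 genes was 0.13 in PANC1 and 0.27 in BXPC3, against medians over all genes tested of -0.01 in PANC1 and 0.01 in BXPC3. The changes were small. The largest rise was 1.62-fold in PANC1, in CDC25A, and 1.41-fold in BXPC3, in CCNE1, and none of the 39 passed 2-fold in either line, where 1466 genes in PANC1 and 504 in BXPC3 did.

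The mean over the 39 genes showed the same order library by library. In PANC1 it was 4.94 and 4.90 log2 RPKM in 5% GelMA, 4.92 and 4.91 in 7.5% GelMA, and 4.77 and 4.82 in collagen. In BXPC3 it was 4.94 and 5.08 in 5% GelMA, 5.04 and 5.05 in 7.5% GelMA, and 4.77 and 4.79 in collagen. Every GelMA library thus had a higher mean than every collagen library of its line. Gene by gene, all 4 GelMA libraries lay above both collagen libraries for 18 genes in PANC1 (29.9% of all genes tested) and for 30 in BXPC3 (26.8% of all). They lay below for 6 genes in PANC1, namely CDC6, MCM5, RFC4, RFC5, LIG1 and TYMS (31.7% of all genes tested), and for RFC5 alone in BXPC3 (25.2% of all).

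**Figure D1:**
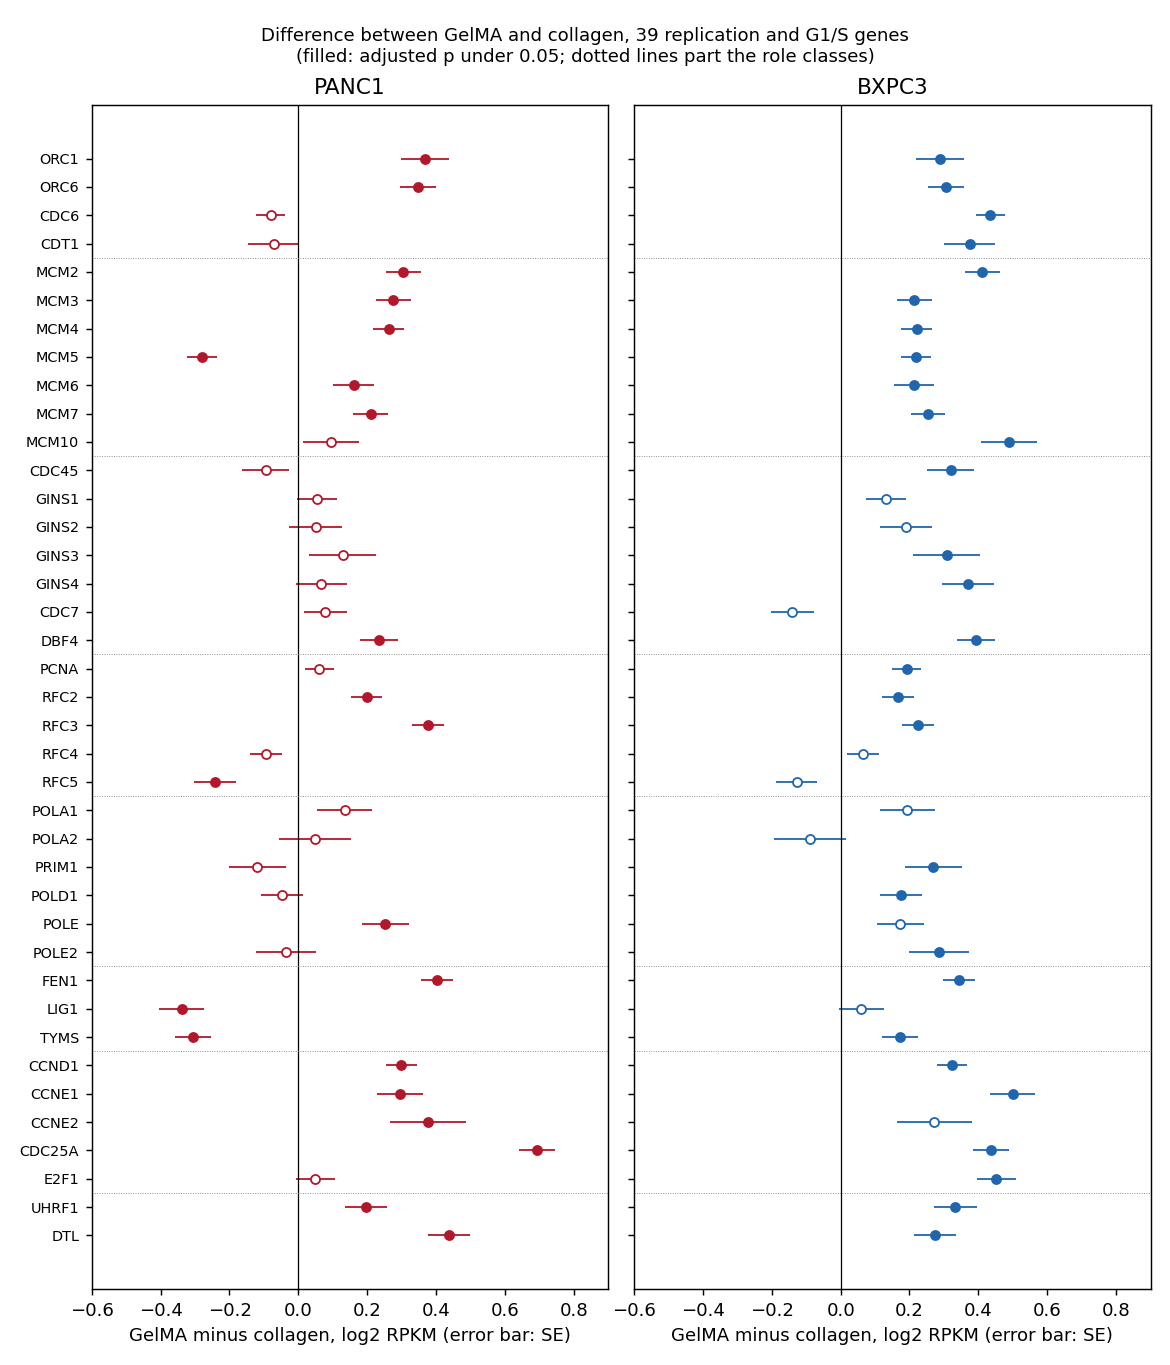
Difference of mean log2 RPKM, GelMA minus collagen, for each of the 39 genes ordered by role, in PANC1 and BXPC3, with bars of 1 standard error from the limma fit. In BXPC3 29 genes rose and none fell, and in PANC1 18 rose and 4 (MCM5, RFC5, LIG1 and TYMS) fell.

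Licensing genes rose as a group in BXPC3 and in part in PANC1. Of ORC1, ORC6, CDC6 and CDT1, 2 rose in PANC1 and all 4 rose in BXPC3. Counts by role, here and below, stand beside 27.7% of all genes tested that rose and 27.4% that fell in PANC1. In BXPC3 these shares were 19.4% and 16.7%. ORC1, the large subunit of the origin recognition complex, stood at 3.79 and 3.62 in 5% GelMA, 3.70 and 3.68 in 7.5% GelMA and 3.38 and 3.27 in collagen in PANC1 (log2 RPKM, as for all libraries below). In BXPC3 ORC1 stood at 4.01 and 4.14 in 5% GelMA, 4.09 and 4.09 in 7.5% GelMA and 3.81 and 3.78 in collagen. Every GelMA library lay above both collagen libraries in each line. The difference for ORC1 was 0.37 ± 0.07 (SE; adjusted p = 0.00129) in PANC1 and 0.29 ± 0.07 (SE; adjusted p = 0.00953) in BXPC3, where the call was lost without collagen replicate 2 (adjusted p = 0.0644). ORC6, the smallest subunit, rose by 0.35 ± 0.05 (adjusted p = 0.000323) in PANC1 and 0.31 ± 0.05 (adjusted p = 0.00160) in BXPC3.

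The loading factors behaved otherwise. CDC6, the ATPase that joins the origin recognition complex to load the MCM ring, stood at 5.29 and 5.18 in 5% GelMA, 5.33 and 5.28 in 7.5% GelMA and 5.33 and 5.37 in collagen in PANC1. In BXPC3 CDC6 stood at 5.63 and 5.70 in 5% GelMA, 5.63 and 5.59 in 7.5% GelMA and 5.21 and 5.20 in collagen. In BXPC3 all 4 GelMA libraries were higher than collagen by a margin wider than the spread between replicates, whereas in PANC1 they lay at or just below collagen. CDC6 differed by -0.08 ± 0.04 (SE; adjusted p = 0.132) in PANC1 and by 0.43 ± 0.04 (SE; adjusted p = 7.18e-05) in BXPC3. CDT1, which brings the MCM ring to the origin and is destroyed in S phase, stood at 4.40 and 4.38 in 5% GelMA, 4.45 and 4.37 in 7.5% GelMA and 4.41 and 4.53 in collagen in PANC1. In BXPC3 CDT1 stood at 5.20 and 5.49 in 5% GelMA, 5.35 and 5.36 in 7.5% GelMA and 4.94 and 5.02 in collagen. The PANC1 groups overlapped for CDT1 and the BXPC3 groups did not. The CDT1 difference was -0.07 ± 0.07 (adjusted p = 0.438) in PANC1 and 0.37 ± 0.07 (adjusted p = 0.00348) in BXPC3.

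Of the helicase genes MCM2 to MCM7 and MCM10, 5 rose and 1 fell in PANC1, and all 7 rose in BXPC3. MCM2, a subunit of the ring, stood at 6.77 and 6.74 in 5% GelMA, 6.75 and 6.77 in 7.5% GelMA and 6.42 and 6.49 in collagen in PANC1. In BXPC3 MCM2 stood at 6.25 and 6.46 in 5% GelMA, 6.42 and 6.41 in 7.5% GelMA and 5.95 and 6.0 in collagen. GelMA and collagen libraries did not overlap in either line, and the rise was 0.30 ± 0.05 (SE; adjusted p = 0.000607) in PANC1 and 0.41 ± 0.05 (SE; adjusted p = 0.000271) in BXPC3. MCM3, MCM4, MCM6 and MCM7 rose as well, by 0.16 to 0.28 in PANC1 and by 0.21 to 0.25 in BXPC3. MCM6 was the least certain of them: its call in PANC1 (adjusted p = 0.0400) was lost when any 1 of 5 of the 6 PANC1 libraries was left out, the exception being collagen replicate 2, with an adjusted p of up to 0.261. In BXPC3 it was lost without collagen replicate 1, collagen replicate 2 or 7.5% GelMA replicate 2 (up to 0.0943), and that of MCM3 without collagen replicate 1 (0.0923).

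MCM5 went the other way in PANC1. The ring holds each of its 6 subunits in equal number, and MCM5 was the only 1 of the 6 genes that fell in any comparison of GelMA with collagen. In PANC1 it stood at 6.39 and 6.36 in 5% GelMA, 6.22 and 6.19 in 7.5% GelMA and 6.55 and 6.59 in collagen. In BXPC3 it stood at 5.92 and 6.06 in 5% GelMA, 6.05 and 5.97 in 7.5% GelMA and 5.78 and 5.78 in collagen. The 4 GelMA libraries lay below collagen in PANC1, lowest in 7.5% GelMA, and above collagen in BXPC3. MCM5 (GRCh38 chr22:35400063-35425430, plus strand) differed by -0.28 ± 0.04 (SE; adjusted p = 0.000365) in PANC1 and by 0.22 ± 0.04 (SE; adjusted p = 0.00340) in BXPC3. MCM10, which helps the helicase to fire and binds DNA polymerase alpha, stood at 3.92 and 3.83 in 5% GelMA, 3.81 and 3.73 in 7.5% GelMA and 3.64 and 3.82 in collagen in PANC1. In BXPC3 MCM10 stood at 4.0 and 4.25 in 5% GelMA, 4.13 and 4.15 in 7.5% GelMA and 3.62 and 3.67 in collagen, so that the groups overlapped in PANC1 and were well apart in BXPC3. The MCM10 difference was 0.09 ± 0.08 (adjusted p = 0.351) in PANC1 and 0.49 ± 0.08 (adjusted p = 0.00134) in BXPC3.

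Of the genes that activate the helicase, CDC45, GINS1, GINS2, GINS3, GINS4, CDC7 and DBF4, 1 rose in PANC1 and 4 rose in BXPC3, and none fell. Over all genes tested, 27.7% rose and 27.4% fell in PANC1, and 19.4% rose and 16.7% fell in BXPC3. The difference between the lines passed its own test, described below, for CDC45 and GINS4 and not for the other 5. DBF4, the subunit that switches on the CDC7 kinase, stood at 4.95 and 4.85 in 5% GelMA, 4.77 and 4.85 in 7.5% GelMA and 4.67 and 4.57 in collagen in PANC1. In BXPC3 DBF4 stood at 4.23 and 4.33 in 5% GelMA, 4.38 and 4.37 in 7.5% GelMA and 3.97 and 3.90 in collagen. It was higher in each GelMA library than in collagen in both lines, by 0.23 ± 0.06 (SE; adjusted p = 0.00498) in PANC1 and 0.39 ± 0.06 (SE; adjusted p = 0.000558) in BXPC3. The PANC1 call was lost without collagen replicate 2 (adjusted p = 0.0571). CDC7, the kinase itself, did not pass the test in either line. CDC7 stood at 4.92 and 4.96 in 5% GelMA, 4.90 and 4.93 in 7.5% GelMA and 4.78 and 4.91 in collagen in PANC1. In BXPC3 CDC7 stood at 3.90 and 4.08 in 5% GelMA, 4.22 and 4.14 in 7.5% GelMA and 4.26 and 4.18 in collagen. The groups overlapped in both lines, with differences of 0.08 ± 0.06 (adjusted p = 0.319) in PANC1 and -0.14 ± 0.06 (adjusted p = 0.110) in BXPC3. Set against collagen by itself, 5% GelMA in BXPC3 had less CDC7, at -0.23 ± 0.07 (adjusted p = 0.0350).

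CDC45 and GINS complete the helicase. CDC45 stood at 3.62 and 3.75 in 5% GelMA, 3.56 and 3.53 in 7.5% GelMA and 3.70 and 3.72 in collagen in PANC1. In BXPC3 CDC45 stood at 4.02 and 4.21 in 5% GelMA, 4.24 and 4.20 in 7.5% GelMA and 3.89 and 3.80 in collagen. The PANC1 groups overlapped and the BXPC3 groups did not, with differences of -0.10 ± 0.07 (adjusted p = 0.261) in PANC1 and 0.32 ± 0.07 (adjusted p = 0.00509) in BXPC3. GINS3, which had the lowest PANC1 level of the GINS genes, stood at 2.39 and 2.40 in 5% GelMA, 2.53 and 2.37 in 7.5% GelMA and 2.46 and 2.13 in collagen in PANC1. In BXPC3 GINS3 stood at 3.66 and 3.74 in 5% GelMA, 3.78 and 3.81 in 7.5% GelMA and 3.46 and 3.42 in collagen. It was higher in GelMA than in collagen in BXPC3, by 0.31 ± 0.10 (adjusted p = 0.0339), while the PANC1 libraries overlapped at 0.13 ± 0.10 (adjusted p = 0.293). Of the other GINS genes, GINS4 rose in BXPC3 by 0.37 ± 0.07 (adjusted p = 0.00385) and differed by 0.07 in PANC1 (adjusted p = 0.476). GINS1 and GINS2 passed the test in neither line, with differences of 0.05 for GINS1 and 0.05 for GINS2 in PANC1 and 0.13 for GINS1 and 0.19 for GINS2 in BXPC3. The BXPC3 call of CDC45 was lost without collagen replicate 2 (0.0506), and that of GINS3 without any 1 of 5 of the 6 BXPC3 libraries, the exception being 5% GelMA replicate 1 (up to 0.148).

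Among the clamp and its loader, 2 of 5 genes rose and 1 fell in PANC1, and 3 rose in BXPC3. Of all genes tested, 27.7% rose and 27.4% fell in PANC1, and 19.4% rose and 16.7% fell in BXPC3. PCNA, the sliding clamp that holds polymerases on DNA, stood at 6.63 and 6.65 in 5% GelMA, 6.54 and 6.60 in 7.5% GelMA and 6.61 and 6.47 in collagen in PANC1. In BXPC3 PCNA stood at 7.76 and 7.83 in 5% GelMA, 7.77 and 7.82 in 7.5% GelMA and 7.59 and 7.62 in collagen. GelMA and collagen overlapped in PANC1 and not in BXPC3, and the difference was 0.06 ± 0.04 (SE; adjusted p = 0.248) in PANC1 and 0.19 ± 0.04 (SE; adjusted p = 0.00605) in BXPC3. RFC3, a subunit shared by the clamp loaders, stood at 3.92 and 3.88 in 5% GelMA, 4.11 and 4.18 in 7.5% GelMA and 3.62 and 3.68 in collagen in PANC1. In BXPC3 RFC3 stood at 4.95 and 4.98 in 5% GelMA, 5.15 and 5.11 in 7.5% GelMA and 4.85 and 4.80 in collagen. RFC3 was lowest in collagen, higher in 5% GelMA and highest in 7.5% GelMA in both lines, and rose by 0.38 ± 0.05 (adjusted p = 8.32e-05) in PANC1 and 0.23 ± 0.05 (adjusted p = 0.00430) in BXPC3.

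The loader subunits did not move as a unit. RFC4 stood at 4.84 and 4.85 in 5% GelMA, 4.79 and 4.73 in 7.5% GelMA and 4.89 and 4.90 in collagen in PANC1. In BXPC3 RFC4 stood at 4.04 and 3.94 in 5% GelMA, 4.0 and 3.99 in 7.5% GelMA and 3.94 and 3.91 in collagen. The 4 GelMA libraries of PANC1 lay just under collagen and those of BXPC3 at or just above it, and RFC4 passed the test in neither line, at -0.10 ± 0.05 (adjusted p = 0.107) in PANC1 and 0.06 ± 0.05 (adjusted p = 0.308) in BXPC3. RFC2 rose in both lines, by 0.20 ± 0.05 (adjusted p = 0.00436) in PANC1 and 0.17 ± 0.05 (adjusted p = 0.0180) in BXPC3. RFC5 fell in PANC1, at -0.24 ± 0.06 (adjusted p = 0.00671), and its difference in BXPC3 was -0.13 ± 0.06 (adjusted p = 0.128). Leaving out PANC1 collagen replicate 2 ended the RFC5 call in PANC1 (0.0640), and leaving out BXPC3 collagen replicate 2 ended that of RFC2 in BXPC3 (0.127).

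Polymerase and primase genes had a median difference of 0.01 in PANC1 and 0.18 in BXPC3. Of POLA1, POLA2, PRIM1, POLD1, POLE and POLE2, 1 rose in PANC1 and 3 rose in BXPC3, and none fell. The shares of all genes tested were 27.7% risen and 27.4% fallen in PANC1, and 19.4% and 16.7% in BXPC3. POLE, the catalytic subunit of the leading-strand polymerase, stood at 6.39 and 6.29 in 5% GelMA, 6.45 and 6.43 in 7.5% GelMA and 6.05 and 6.22 in collagen in PANC1. In BXPC3 POLE stood at 5.89 and 6.14 in 5% GelMA, 6.09 and 6.11 in 7.5% GelMA and 5.88 and 5.89 in collagen. The GelMA libraries lay above collagen in PANC1, and in BXPC3 the lowest of them reached down to collagen, so that the difference was 0.25 ± 0.07 (SE; adjusted p = 0.0103) in PANC1 and 0.17 ± 0.07 (SE; adjusted p = 0.0736) in BXPC3. Its partner subunit POLE2 stood at 2.33 and 2.40 in 5% GelMA, 2.48 and 2.40 in 7.5% GelMA and 2.38 and 2.50 in collagen in PANC1. In BXPC3 POLE2 stood at 2.96 and 3.04 in 5% GelMA, 3.19 and 3.14 in 7.5% GelMA and 2.87 and 2.72 in collagen. POLE2 overlapped between substrates in PANC1 at -0.04 ± 0.09 (adjusted p = 0.748) and was higher in each GelMA library in BXPC3, at 0.29 ± 0.09 (adjusted p = 0.0268).

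PRIM1, the catalytic subunit of primase, rose in BXPC3 by 0.27 ± 0.08 (adjusted p = 0.0288) and differed by -0.12 ± 0.08 (adjusted p = 0.244) in PANC1. POLD1, the catalytic subunit of the main lagging-strand polymerase, rose in BXPC3 by 0.18 ± 0.06 (adjusted p = 0.0494) and differed by -0.05 in PANC1 (adjusted p = 0.538). The 2 genes of DNA polymerase alpha passed in neither line: POLA1 differed by 0.13 in PANC1 and 0.19 in BXPC3, and POLA2, the least abundant of the 39 genes per length in both lines, by 0.05 in PANC1 and -0.09 in BXPC3. The polymerase calls were the least firm of all the roles. POLE lost its PANC1 call without collagen replicate 1 (0.123). In BXPC3, POLE2 lost it without any 1 of 4 libraries (collagen replicate 2, 5% GelMA replicate 2 or either 7.5% GelMA library, up to 0.186), PRIM1 without any 1 of 3 (collagen replicate 2 or replicate 2 of either GelMA, up to 0.181) and POLD1 without any 1 of 9 of the 12 libraries, both BXPC3 collagen libraries among them (up to 0.272).

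The genes of Okazaki fragment joining and of thymidylate supply moved apart in PANC1, where 1 rose and 2 fell, while 2 of 3 rose in BXPC3. FEN1, the nuclease that trims the flap between fragments, stood at 7.31 and 7.28 in 5% GelMA, 7.27 and 7.24 in 7.5% GelMA and 6.84 and 6.91 in collagen in PANC1. In BXPC3 FEN1 stood at 7.24 and 7.38 in 5% GelMA, 7.14 and 7.26 in 7.5% GelMA and 6.93 and 6.89 in collagen. Each GelMA library was higher than collagen in both lines, and FEN1 rose by 0.40 ± 0.05 (SE; adjusted p = 5.07e-05) in PANC1 and 0.34 ± 0.05 (SE; adjusted p = 0.000436) in BXPC3. LIG1, the ligase that seals the nick FEN1 leaves, stood at 4.56 and 4.65 in 5% GelMA, 4.34 and 4.46 in 7.5% GelMA and 4.78 and 4.90 in collagen in PANC1. In BXPC3 LIG1 stood at 5.21 and 5.42 in 5% GelMA, 5.29 and 5.34 in 7.5% GelMA and 5.24 and 5.28 in collagen. LIG1 was lower in each GelMA library of PANC1, lowest in 7.5% GelMA, and overlapped in BXPC3, with differences of -0.34 ± 0.06 (SE; adjusted p = 0.00138) in PANC1 and 0.06 ± 0.06 (SE; adjusted p = 0.506) in BXPC3.

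TYMS, thymidylate synthase, makes the thymidine nucleotide needed for DNA and is the target of fluorouracil. It stood at 6.78 and 6.83 in 5% GelMA, 6.57 and 6.54 in 7.5% GelMA and 6.98 and 7.0 in collagen in PANC1. In BXPC3 it stood at 5.18 and 5.28 in 5% GelMA, 5.29 and 5.30 in 7.5% GelMA and 4.99 and 5.19 in collagen. In PANC1 collagen was highest and 7.5% GelMA lowest with no overlap, while in BXPC3 the lowest GelMA library fell between the 2 collagen libraries. TYMS fell in PANC1, at -0.31 ± 0.05 (SE; adjusted p = 0.000623), and rose in BXPC3, by 0.17 ± 0.05 (SE; adjusted p = 0.0256). The BXPC3 call was lost without any 1 of 3 libraries (collagen replicate 1, 5% GelMA replicate 2 or 7.5% GelMA replicate 2), at an adjusted p of up to 0.251 and a log2 difference between 0.07 and 0.27, and the PANC1 call was not lost without any library. TYMS (GRCh38 chr18:657604-673578, plus strand) shares 39.1% of its exonic bases with ENOSF1 on the opposite strand. ENOSF1 fell by 1.01 in PANC1 (means of 5.07 in GelMA and 6.09 in collagen, adjusted p = 3.19e-07) and by 0.37 in BXPC3 (5.36 and 5.73, adjusted p = 0.000757). The strand setting of the counting is not given in the sources used here, and the part of ENOSF1 reads in the TYMS values was not tested.

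**Figure D2:**
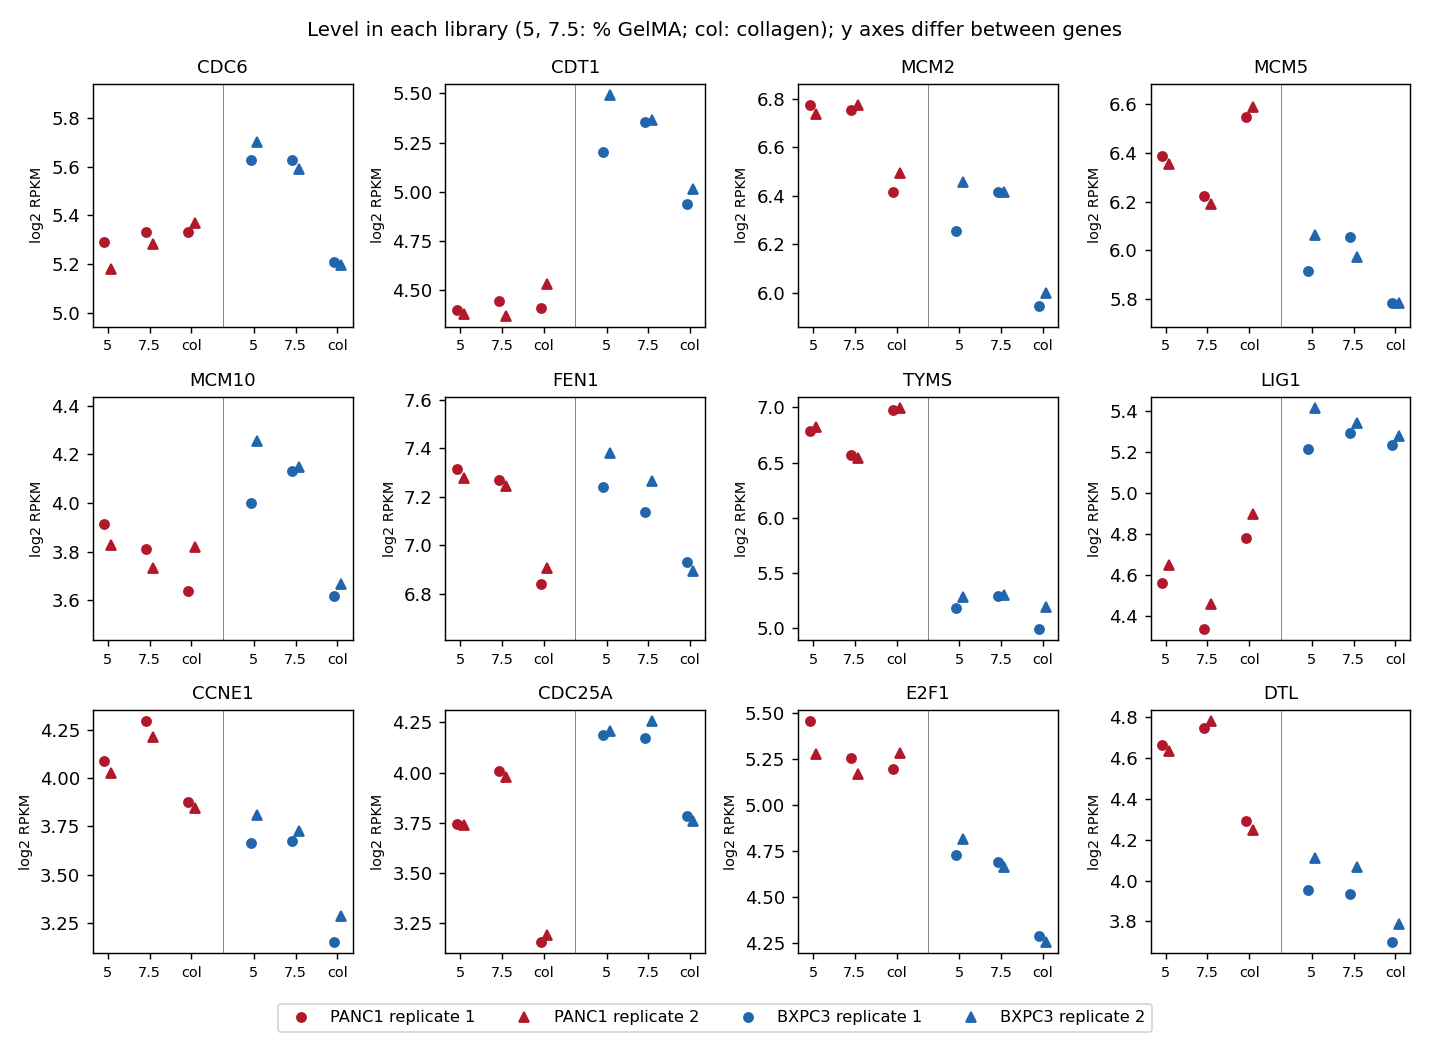
Log2 RPKM of 12 replication and G1/S genes in each of the 12 libraries, PANC1 left and BXPC3 right in each panel, with the 2 libraries of a group as a circle (replicate 1) and a triangle (replicate 2). FEN1 and CDC25A are higher in every GelMA library of both lines, CDC6 and CDT1 in BXPC3, while MCM5, TYMS and LIG1 are lower in every GelMA library of PANC1.

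G1/S regulators held the largest rises of the set. Of CCND1, CCNE1, CCNE2, CDC25A and E2F1, 4 rose in PANC1 and 4 in BXPC3. CDC25A, the phosphatase that removes inhibitory phosphates from CDK2, stood at 3.74 and 3.74 in 5% GelMA, 4.01 and 3.98 in 7.5% GelMA and 3.15 and 3.19 in collagen in PANC1. In BXPC3 CDC25A stood at 4.19 and 4.21 in 5% GelMA, 4.17 and 4.26 in 7.5% GelMA and 3.78 and 3.76 in collagen. Collagen was lowest in both lines, and in PANC1 7.5% GelMA was also above 5% GelMA. CDC25A rose by 0.69 ± 0.05 (SE; adjusted p = 2.85e-06) in PANC1 and 0.44 ± 0.05 (SE; adjusted p = 0.000216) in BXPC3. CCNE1, the cyclin that activates CDK2 at the G1/S boundary, stood at 4.09 and 4.03 in 5% GelMA, 4.29 and 4.21 in 7.5% GelMA and 3.88 and 3.85 in collagen in PANC1. In BXPC3 CCNE1 stood at 3.66 and 3.81 in 5% GelMA, 3.67 and 3.73 in 7.5% GelMA and 3.15 and 3.28 in collagen. Its GelMA libraries were above collagen in both lines, by 0.29 ± 0.07 (adjusted p = 0.00372) in PANC1 and 0.50 ± 0.07 (adjusted p = 0.000395) in BXPC3.

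CCND1, the D-type cyclin that starts phosphorylation of the retinoblastoma protein, rose by 0.30 ± 0.04 (adjusted p = 0.000262) in PANC1 and 0.32 ± 0.04 (adjusted p = 0.000448) in BXPC3. CCNE2, the second E-type cyclin, rose in PANC1 by 0.38 ± 0.11 (adjusted p = 0.0147) and differed by 0.27 ± 0.11 (adjusted p = 0.0788) in BXPC3. The PANC1 call of CCNE2 was lost without collagen replicate 1 (0.118), and CCNE2 shares 37.0% of its exonic bases with INTS8 on the opposite strand, which was lower in GelMA, at -0.26 in PANC1 and -0.19 in BXPC3. E2F1, the transcription factor that the cyclins release, stood at 5.46 and 5.28 in 5% GelMA, 5.26 and 5.17 in 7.5% GelMA and 5.20 and 5.28 in collagen in PANC1. In BXPC3 E2F1 stood at 4.73 and 4.81 in 5% GelMA, 4.69 and 4.66 in 7.5% GelMA and 4.29 and 4.25 in collagen. The PANC1 libraries overlapped and the BXPC3 libraries did not, with differences of 0.05 ± 0.06 (SE; adjusted p = 0.490) in PANC1 and 0.45 ± 0.06 (SE; adjusted p = 0.000300) in BXPC3.

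The 2 genes of ubiquitin ligases that act on replicating chromatin rose in both lines. DTL, which with PCNA on DNA targets CDT1 for destruction in S phase, stood at 4.67 and 4.64 in 5% GelMA, 4.75 and 4.78 in 7.5% GelMA and 4.29 and 4.25 in collagen in PANC1. In BXPC3 DTL stood at 3.95 and 4.11 in 5% GelMA, 3.94 and 4.07 in 7.5% GelMA and 3.70 and 3.79 in collagen. Its GelMA and collagen libraries did not overlap, and it rose by 0.44 ± 0.06 (adjusted p = 0.000195) in PANC1 and 0.27 ± 0.06 (adjusted p = 0.00673) in BXPC3. UHRF1, which brings maintenance methylation to newly copied DNA, stood at 5.62 and 5.61 in 5% GelMA, 5.44 and 5.37 in 7.5% GelMA and 5.30 and 5.33 in collagen in PANC1. In BXPC3 UHRF1 stood at 5.24 and 5.49 in 5% GelMA, 5.23 and 5.30 in 7.5% GelMA and 5.01 and 4.95 in collagen. UHRF1 was higher in each GelMA library, with rises of 0.20 ± 0.06 (adjusted p = 0.0213) in PANC1 and 0.33 ± 0.06 (adjusted p = 0.00247) in BXPC3. By percentage, the PANC1 difference from collagen was 0.30 in 5% GelMA (adjusted p = 0.00635) and 0.09 in 7.5% GelMA (adjusted p = 0.309). The difference between the percentages did not pass the test (-0.21, adjusted p = 0.0680). In PANC1 the UHRF1 call was lost without either collagen library or 7.5% GelMA replicate 1 (up to 0.102), and in BXPC3 the DTL call without collagen replicate 1 (0.0525).

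The response to GelMA was then compared between the lines, as the PANC1 difference minus the BXPC3 difference. Of the 39 genes, 1 was higher and 10 were lower by this test, while 18.5% of all genes tested were higher and 20.6% lower. The median was -0.11 over the 39 genes and -0.02 over all genes tested. The 10 lower genes came from 6 of the 8 roles: CDC6 (-0.51, adjusted p = 0.000117), CDT1 (-0.45, adjusted p = 0.00746), MCM5 (-0.50, adjusted p = 0.000166), MCM10 (-0.40, adjusted p = 0.0209), CDC45 (-0.41, adjusted p = 0.00707), GINS4 (-0.30, adjusted p = 0.0438), PRIM1 (-0.39, adjusted p = 0.0242), LIG1 (-0.40, adjusted p = 0.00667), TYMS (-0.48, adjusted p = 0.000629) and E2F1 (-0.40, adjusted p = 0.00322). CDC25A was the only 1 of the 39 with a positive difference that passed the test (0.26, adjusted p = 0.0195).

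For most of these genes a rise in BXPC3 stood beside a PANC1 value near 0, as in CDC6, CDT1, MCM10, CDC45, GINS4, PRIM1 and E2F1. MCM5 and TYMS had calls in opposite directions, lower in PANC1 and higher in BXPC3. LIG1 fell in PANC1 and did not pass the test in BXPC3. Another 16 genes rose in both lines: ORC1, ORC6, MCM2, MCM3, MCM4, MCM6, MCM7, DBF4, RFC2, RFC3, FEN1, CCND1, CCNE1, CDC25A, UHRF1 and DTL. GINS3, PCNA, POLD1 and POLE2 were called in BXPC3 alone and POLE, CCNE2 and RFC5 in PANC1 alone, but for none of these 7 did the difference between the lines pass the test. Calls of 4 of the 11 genes were lost when 1 library was left out: MCM10 without either BXPC3 collagen replicate 1 or PANC1 collagen replicate 2 (up to 0.0914), PRIM1 without any 1 of 4 libraries (up to 0.0916), GINS4 without any 1 of 9 of the 12 (up to 0.149) and CDC25A without PANC1 collagen replicate 1 (0.0565). Across the 39 genes the differences in PANC1 and in BXPC3, which share no library, had a Pearson r of 0.39, beside 0.25 over all genes tested. Genes of a pathway are not independent replicates, and all values share 1 normalization.

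**Figure D3:**
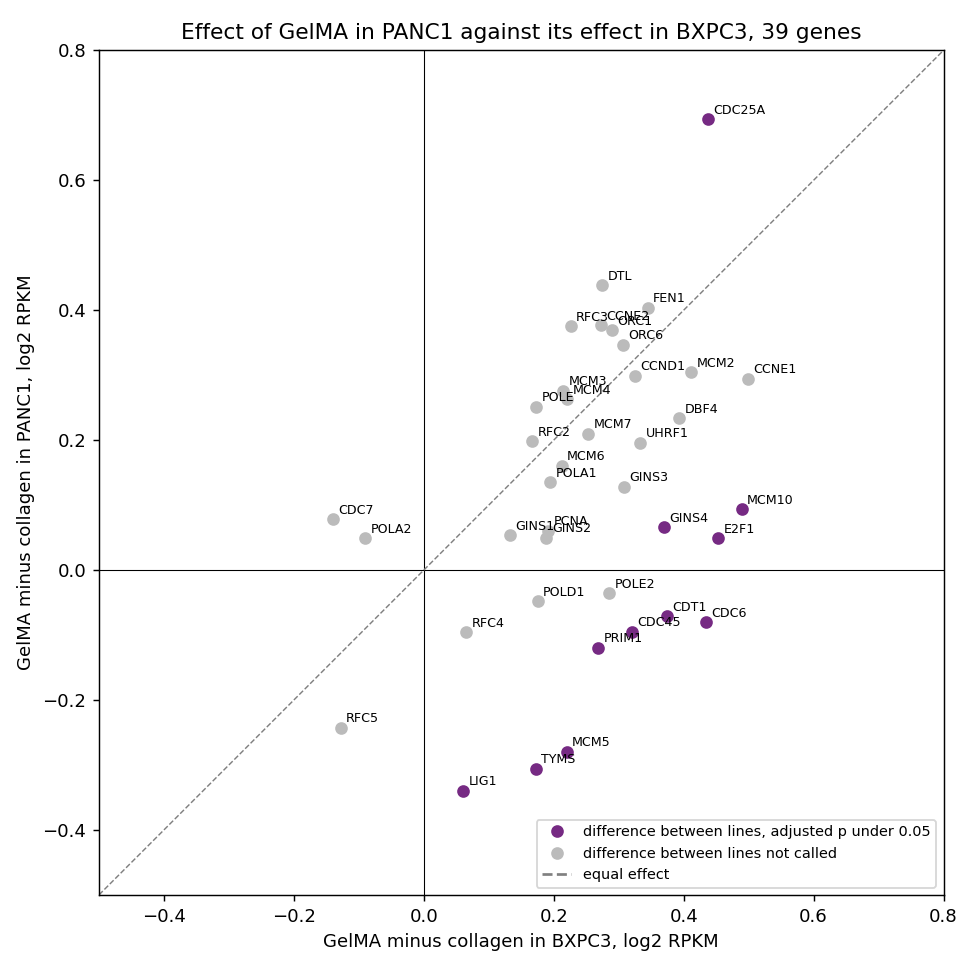
GelMA minus collagen difference (log2) of each of the 39 genes in PANC1 (vertical axis) against BXPC3 (horizontal axis), with genes whose difference between the lines passed the test marked. MCM5, TYMS and LIG1 lie lowest, CDC25A highest, and 26 of the 39 genes are above 0 in both lines.

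Stiffness of a GelMA gel rises with its percentage, and the next comparison set 7.5% against 5% GelMA within each line. In PANC1, 3 of 39 genes were higher and 2 lower in 7.5% GelMA, while 9.16% of all genes tested were higher and 9.56% lower. CDC25A was higher by 0.25 ± 0.06 (SE; adjusted p = 0.0160), RFC3 by 0.25 ± 0.05 (adjusted p = 0.0108) and CCND1 by 0.19 ± 0.05 (adjusted p = 0.0281). TYMS was lower, at -0.25 ± 0.06 (adjusted p = 0.0164), and MCM5 was lower, at -0.16 ± 0.05 (adjusted p = 0.0453). The MCM5 call was lost with the replicate block (adjusted p = 0.0630), without the mean-variance trend (0.0984) and without any 1 of 10 of the 12 libraries. ENOSF1, which overlaps TYMS, was lower in 7.5% GelMA as well, at -0.43 (adjusted p = 0.00143), and its part in the TYMS value was not tested. The calls of the 5 genes rest on 2 libraries a side: without 1 of the 4 PANC1 GelMA libraries, 1 (5% replicate 1), 0 (5% replicate 2), 1 (7.5% replicate 1) or 0 (7.5% replicate 2) genes were called.

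In BXPC3, 0 of 39 genes passed this test by limma, where 0.0823% of all genes tested did, and 2 were higher and 0 lower at an unadjusted p under 0.05. RFC3 differed by 0.17 (adjusted p = 0.350) and TYMS by 0.06 (adjusted p = 0.816). The effect of the percentage differed between the lines in 1 of 39 genes, TYMS, at -0.31 ± 0.08 (adjusted p = 0.0457), while 8.97% of all genes tested differed. No gene of the 39 was called there without the mean-variance trend or without any 1 of 9 of the 12 libraries. Each percentage was also set against the same 2 collagen libraries of its line. In PANC1, 16 genes rose and 4 fell in 5% GelMA (23.0% and 23.2% of all genes tested), and 16 rose and 4 fell in 7.5% GelMA (27.2% and 26.6% of all). In BXPC3, 22 rose and 1 fell in 5% GelMA (16.1% and 13.7% of all), and 27 rose and 0 fell in 7.5% GelMA (16.1% and 13.7% of all), where 0 were lower at an unadjusted p under 0.05 too. In either direction, calls in 5% GelMA numbered 12 in PANC1 without 5% GelMA replicate 1, against 20 with all libraries, and in BXPC3 13 without 5% GelMA replicate 2 and 14 without collagen replicate 1, against 23. Calls in 7.5% GelMA in BXPC3 numbered 15 without 7.5% GelMA replicate 2, against 27. For CDC25A in PANC1 the differences were 0.57 in 5% GelMA and 0.82 in 7.5% GelMA, for LIG1 -0.24 and -0.44, for TYMS -0.18 and -0.43, and for MCM5 -0.20 and -0.36, with the collagen libraries shared.

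**Figure D4:**
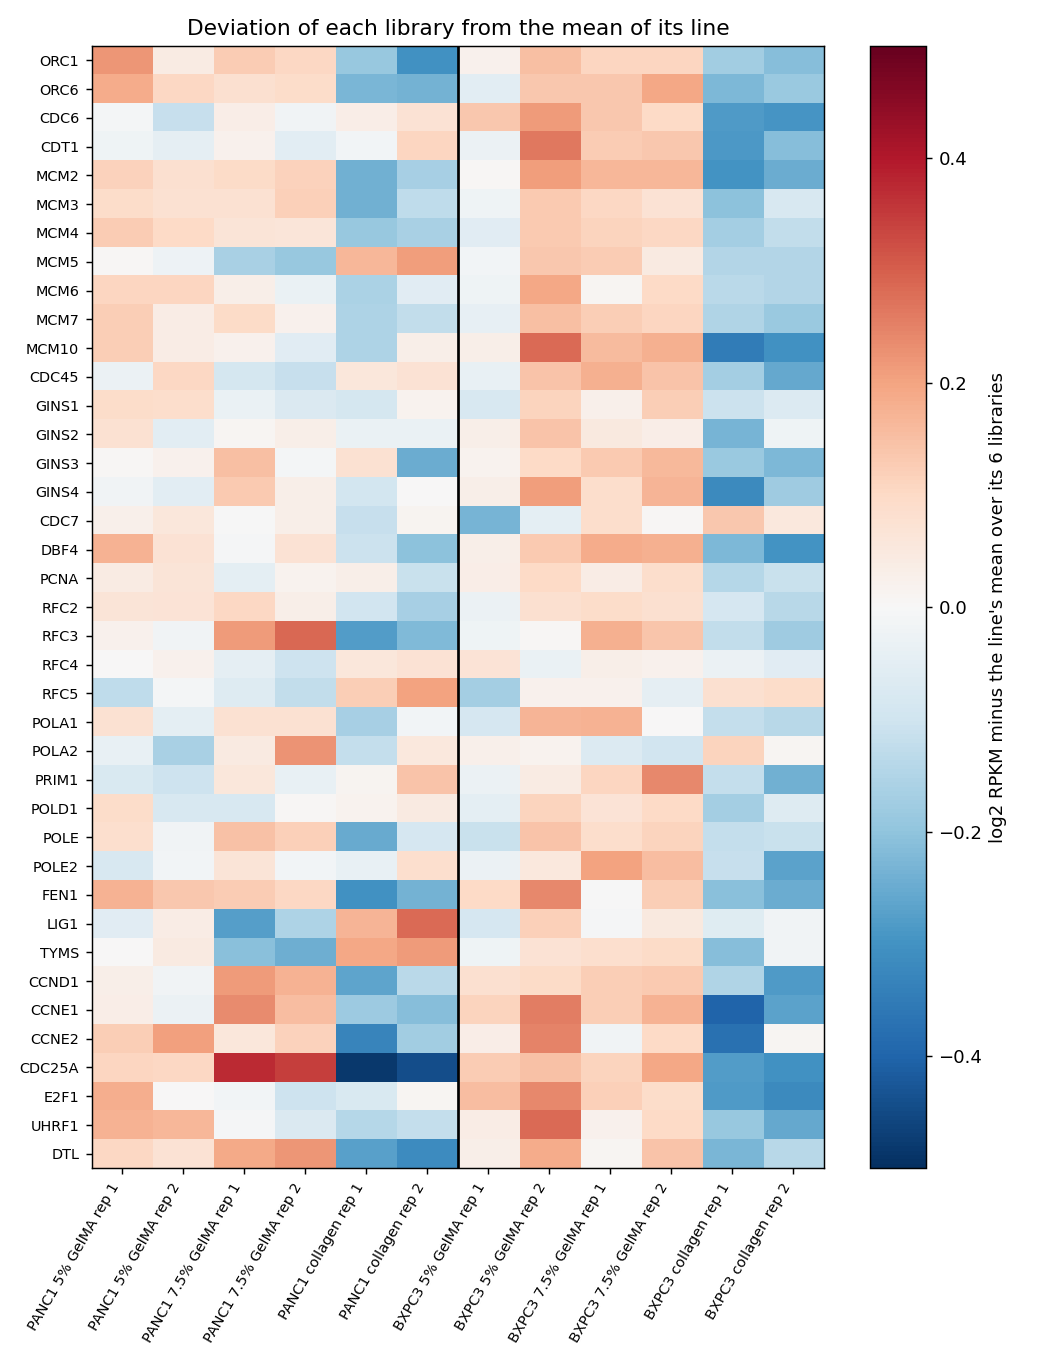
Log2 RPKM of each of the 39 genes in each of the 12 libraries as the deviation from the mean of that gene over the 6 libraries of its line, genes ordered by role and libraries by line and substrate. Collagen columns are low for most genes in both lines. They lie above all 4 GelMA columns for CDC6, MCM5, RFC4, RFC5, LIG1 and TYMS in PANC1 and for RFC5 in BXPC3. BXPC3 5% GelMA replicate 1 is lower than replicate 2 in 37 genes.

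Over the 3 substrates together, PANC1 was higher than BXPC3 in 14 and lower in 21 of the 39, while 50.0% of all genes tested were higher and 41.9% lower, so that a difference between the lines was as common over all genes. For 10 genes all 6 PANC1 libraries lay above all 6 BXPC3 libraries (39.1% of all genes tested), for 11 they lay below (32.7% of all), and for 18 the lines overlapped. TYMS had the widest gap, 1.58 ± 0.03 higher in PANC1 (SE, adjusted p = 7.29e-12), at 110 RPKM in PANC1 and 36.9 RPKM in BXPC3. RFC4 followed at 0.87 ± 0.03 (adjusted p = 3.78e-10), CDC7 at 0.77 ± 0.04 (adjusted p = 1.36e-08), MCM6 at 0.71 ± 0.04 (adjusted p = 1.52e-08) and E2F1 at 0.70 ± 0.04 (adjusted p = 1.37e-08). At the other end were GINS3 at -1.27 ± 0.07 (adjusted p = 8.59e-09), PCNA at -1.15 ± 0.03 (adjusted p = 1.81e-11), RFC3 at -1.08 ± 0.03 (adjusted p = 6.43e-11), POLD1 at -0.94 ± 0.04 (adjusted p = 2.05e-09) and CDT1 at -0.80 ± 0.05 (adjusted p = 3.79e-08). MCM7, RFC2, FEN1 and POLA2 did not pass the test between the lines.

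Within 1 complex the subunits differed in both size and direction between the lines. In the clamp loader, RFC4 had 28.5 RPKM in PANC1 and 15.7 RPKM in BXPC3, and RFC3 had 14.9 RPKM in PANC1 and 31.5 RPKM in BXPC3. In the MCM ring, MCM6 had 60.4 RPKM in PANC1 and 37 RPKM in BXPC3, while MCM4 had 123 RPKM in PANC1 and 152 RPKM in BXPC3. In GINS, all 4 genes were lower in PANC1, with GINS1 at 25.4 RPKM in PANC1 and 32.9 RPKM in BXPC3 and GINS3 at 5.2 RPKM in PANC1 and 12.5 RPKM in BXPC3. MCM7 was the most abundant of the 39 per length in both lines, at 229 RPKM in PANC1 and 226 RPKM in BXPC3, and POLA2 the least, at 4.2 RPKM in PANC1 and 4.68 RPKM in BXPC3. These are levels per gene length, and the lines were each grown in all 3 substrates.

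**Figure D5:**
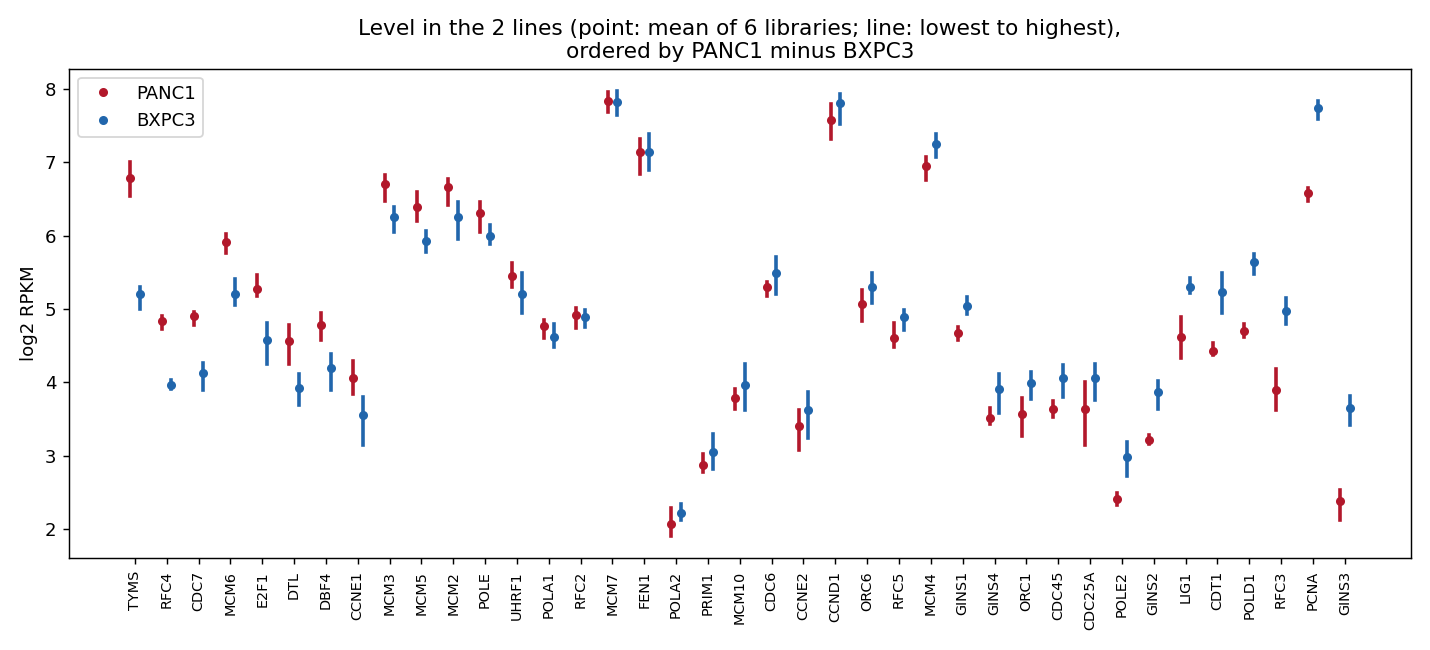
Mean log2 RPKM of each of the 39 genes over the 6 libraries of each line, ordered by the PANC1 minus BXPC3 difference, PANC1 left of BXPC3 for each gene, with lines over the lowest to the highest library. TYMS, RFC4 and CDC7 are higher in PANC1, PCNA, RFC3 and GINS3 higher in BXPC3, and MCM7 and FEN1 nearly equal.

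Many of these genes are known to be controlled through E2F sites close to their start, so promoter windows of 300 bases (250 before and 50 after the start) were read from RefSeq on GRCh38.p14 for 34 of the 39 genes, the first listed start of each. An E2F match was any of the 4 forms TTTCCCGC, TTTCGCGC, TTTGCCGC and TTTGGCGC on either strand. It was found in 21 of 34 windows (61.8%), and in 908 of 27305 windows of all genes (3.3%). The median GC content was 66.7% in the windows of these genes and 58.3% in all windows, and among the 16613 windows within the same range of GC content (53.0% to 81.0%), 787 (4.7%) held a match. The CCAAT box, 5 letters found in many cell cycle promoters, stood in 19 of 34 windows (55.9%, against 35.7% of all).

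The stretches below are shown because they hold matches in genes with different outcomes in GelMA: MCM6 and CDC25A rose in both lines, PCNA rose in BXPC3, and POLA1 passed the test in neither. They run 5′ to 3′ on the strand of the gene in the bases before its RefSeq start, kept to the part free of annotated exons, with E2F matches in capitals. They lie at chr2:135876444-135876623 (minus strand), chr3:48188418-48188597 (minus strand), chr20:5126627-5126785 (minus strand) and chrX:24693738-24693917 (plus strand) of GRCh38.p14.
MCM6: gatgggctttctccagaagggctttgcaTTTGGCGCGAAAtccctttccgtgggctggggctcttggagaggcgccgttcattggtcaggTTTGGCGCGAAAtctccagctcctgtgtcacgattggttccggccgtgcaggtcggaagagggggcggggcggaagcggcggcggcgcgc
CDC25A: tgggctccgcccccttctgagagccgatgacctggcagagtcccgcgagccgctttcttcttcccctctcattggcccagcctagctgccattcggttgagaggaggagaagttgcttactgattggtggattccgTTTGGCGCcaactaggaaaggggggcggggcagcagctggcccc
PCNA: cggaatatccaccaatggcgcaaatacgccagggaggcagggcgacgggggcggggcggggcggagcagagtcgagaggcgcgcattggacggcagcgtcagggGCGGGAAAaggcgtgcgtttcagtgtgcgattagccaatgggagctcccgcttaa
POLA1: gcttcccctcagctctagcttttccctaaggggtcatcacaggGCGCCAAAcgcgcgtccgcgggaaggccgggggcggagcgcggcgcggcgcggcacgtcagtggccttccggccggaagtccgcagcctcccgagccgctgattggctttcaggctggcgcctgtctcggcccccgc
In MCM6 the capitals show 2 stretches, each a pair of matches on opposite strands that overlap, which makes 4 matches. CDC25A, PCNA and POLA1 each show 1.

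Genes with and without a match both changed in GelMA. Of the 21 genes with a match, 9 rose and 2 fell in PANC1 and 15 rose in BXPC3. Of the 13 without one, 6 rose and 1 fell in PANC1 and 10 rose in BXPC3. Over all genes tested, 27.7% rose and 27.4% fell in PANC1, and 19.4% rose and 16.7% fell in BXPC3. For the difference between the lines, 1 of the 21 was higher and 5 lower, and 3 of the 13 were lower. By that test 18.5% of all genes tested were higher and 20.6% lower. A match is a run of letters, not a measured site, and no binding was measured here.

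Counts for other genes of the same processes, from lists outside the 39, stand beside 27.7% of all genes tested that rose and 27.4% that fell in PANC1, and 19.4% and 16.7% in BXPC3. Of 25 further genes of firing and the fork, 5 rose and 6 fell in PANC1 and 12 rose in BXPC3. CLSPN, an adaptor of the replication checkpoint, rose by 0.59 in PANC1. POLD4, a small subunit of polymerase delta, was lower in PANC1, at -0.38, and DSCC1, part of an alternative clamp loader, rose by 0.57 in BXPC3. Among 6 further licensing genes, 1 fell in PANC1 (MCMBP, which binds MCM proteins, at -0.26), and 2 rose in BXPC3, GMNN, the inhibitor of CDT1, by 0.22 the more. Of 13 genes of nucleotide supply, 4 rose and 3 fell in PANC1 and 6 rose in BXPC3. RRM2, the regulated subunit of ribonucleotide reductase, rose by 0.47 in PANC1, where IMPDH2 of guanine nucleotide synthesis was lower at -0.47, and UMPS of pyrimidine synthesis rose by 0.30 in BXPC3.

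Of 8 genes of chromatin assembly and maintenance methylation, 4 rose and 1 fell in PANC1 and 5 rose in BXPC3. The chromatin remodeller HELLS rose by 0.60 in PANC1, the histone chaperone NASP was lower there at -0.13, and the maintenance methyltransferase DNMT1 rose by 0.29 in BXPC3. Of 13 genes of the S phase checkpoint and fork repair, 6 rose and 2 fell in PANC1 and 4 rose in BXPC3. EXO1, a DNA exonuclease, rose by 0.55 in PANC1 and 0.38 in BXPC3, and BRCA1 was lower in PANC1, at -0.41. Of 28 genes of G2/M and mitosis, 12 rose and 1 fell in PANC1, with a median of 0.09, and 15 rose in BXPC3, with a median of 0.17. CENPE, a kinetochore motor, rose by 0.48 in PANC1, CCNB2, a mitotic cyclin, was lower there at -0.40, and the mitotic kinase AURKB rose by 0.36 in BXPC3.

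Upstream of these genes, 10 further G1/S cyclins and kinases gave 5 rises and 2 falls in PANC1 and 6 rises in BXPC3. CDK6, a partner of D-type cyclins, rose by 0.42 in PANC1. CCND2, another D-type cyclin, stood at -1.45 and -0.67 in 5% GelMA, 0.30 and 0.27 in 7.5% GelMA and 0.26 and 0.21 in collagen in PANC1. In BXPC3 CCND2 stood at 0.40 and 0.55 in 5% GelMA, 1.18 and 0.97 in 7.5% GelMA and -0.24 and -0.10 in collagen. The PANC1 difference of -0.62 ± 0.22 (adjusted p = 0.0343) came with -1.29 in 5% GelMA (adjusted p = 0.00213) and 0.05 in 7.5% GelMA (adjusted p = 0.873), while the BXPC3 difference was 0.94 ± 0.22 (adjusted p = 0.00766). Among 15 E2F and pocket protein genes, 4 rose and 2 fell in PANC1 and 3 rose and 1 fell in BXPC3. E2F2 rose by 0.69 in PANC1 and 0.61 in BXPC3, TFDP1, a partner of E2F proteins, was lower at -0.19 in PANC1, and the pocket protein gene RBL2 was lower at -0.30 in BXPC3. Of 6 CDK inhibitor genes, 1 rose in PANC1, and 2 rose and 1 fell in BXPC3. CDKN1A, which encodes p21, rose by 0.63 in PANC1 and 0.52 in BXPC3, CDKN1C rose by 0.76 in BXPC3, and CDKN1B was lower there at -0.17.

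Genes of the response to low oxygen moved with the substrate as well, and by more. Of 15 listed, all 15 fell in PANC1, with a median of -2.30, and 13 fell in BXPC3, with a median of -1.13. Their mean in PANC1 was 5.46 and 5.49 log2 RPKM in 5% GelMA, 4.31 and 4.32 in 7.5% GelMA, and 7.29 and 7.32 in collagen. In BXPC3 it was 4.33 and 4.38 in 5% GelMA, 4.57 and 4.53 in 7.5% GelMA, and 5.78 and 6.25 in collagen. Of 14 cytosolic ribosomal protein genes, 11 fell in PANC1, and 1 rose and 6 fell in BXPC3. Of 10 genes encoded in mitochondria, 5 rose in PANC1 and 0 passed the test in BXPC3 by limma, where 2 were higher and 1 lower at an unadjusted p under 0.05. Only part of the markers of other cell types could be tested, and some of them had high values. Of the fibroblast list, 3 of 7 genes were in the table. In PANC1 COL1A1 averaged 8.16 in GelMA and 6.50 in collagen and COL3A1 averaged 3.11 in GelMA and 5.73 in collagen, while ACTA2 ranged between -0.28 and 0.57. In BXPC3 COL1A1 rose by 0.20, ACTA2 was lower at -0.62 and COL3A1 did not pass the test. Of 4 endothelial genes 2 could be tested. PECAM1 ranged between -4.94 and -3.35 in PANC1, where it was higher in GelMA by 0.83 (adjusted p = 0.0164), and between -0.29 and 0.46 in BXPC3, where the difference was -0.30 (adjusted p = 0.372). VWF ranged between -4.68 and -3.08 in PANC1 and between 0.78 and 1.44 in BXPC3, with differences of -0.47 in PANC1 (adjusted p = 0.308) and -0.08 in BXPC3 (adjusted p = 0.893). Of 5 immune genes 2 were tested and passed in neither line, CD14, at values between 2.44 and 3.08 in PANC1 and between 3.78 and 4.41 in BXPC3, and CD3E, between -5.58 and -4.76 in PANC1 and between 0.13 and 1.12 in BXPC3. The part of these shifts in the values of the replication genes was not tested.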

How the data were processed

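Poly-A captured RNA was sequenced after extraction on RNeasy columns, per the labels' protocols. The submitters' processing notes name HISAT2 2.1.0, HTSeq and GRCh38 (hg38), and for the settings, the annotation and the strand nothing is stated in those sources. The authors deposited log2 RPKM values in 1 table of 16299 genes by 12 libraries, with 0 columns left unmapped. Sorted values agreed between libraries within 0.05 log2 over the 13758 highest ranks, so quantile normalization, which removes shifts shared by most genes, was inferred from the values. The offset before the log and the depth of each library are unknown, so precision rests on the spread between libraries alone.

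The test was run on 15794 genes that reached 1 RPKM in 2 or more libraries (505 did not), on the deposited values, with limma 3.58.1 for R 4.3.3. It used lmFit on 6 group means over 12 libraries, contrasts.fit, and eBayes with trend (6 residual and 3.89 prior degrees of freedom). Benjamini-Hochberg adjustment covered all genes tested in each comparison, and calls were made at an adjusted p under 0.05. The code was tested on simulated data. Symbols came from a gene name table (16250 IDs) or GENCODE 29 (the other 49), which also gave positions and overlaps. Groups follow the labelled cell line and substrate.

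The 39 genes and the other lists were chosen with earlier results of these data known. Genes were described library by library where they had the largest GelMA difference of their role in either line or calls in opposite directions. Those with the largest differences between the lines in the GelMA effect were included too. So were those with the highest or lowest PANC1 minus BXPC3 difference over all substrates. Others were added after their values were seen. Alternatives were log2(RPKM + 1), no filter, a filter of 5 RPKM, fits within 1 line, a replicate block, centring of each library on a median in 2 ways, eBayes without trend or robust, and leaving out each library.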

Additional observations from a re-analysis of the deposited data

Results flagged for a closer look

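Among the 39 replication and G1/S genes, 11 responded to GelMA differently in the lines by the test of the difference itself (PANC1 difference minus BXPC3 difference, log2, limma, Benjamini-Hochberg adjusted over all genes tested). Of these, 1 was higher and 10 lower, while 18.5% of all genes tested were higher and 20.6% lower, so the lower count does not set the 39 apart. The higher count lay below the share of all genes. The median was -0.11 over the 39 genes and -0.02 over all genes tested. The values were -0.51 for CDC6 (adjusted p = 0.000117), -0.45 for CDT1 (0.00746), -0.50 for MCM5 (0.000166), -0.40 for MCM10 (0.0209), -0.41 for CDC45 (0.00707) and -0.30 for GINS4 (0.0438). They were -0.39 for PRIM1 (0.0242), -0.40 for LIG1 (0.00667), -0.48 for TYMS (0.000629), -0.40 for E2F1 (0.00322) and 0.26 for CDC25A (0.0195). The effect of the GelMA percentage also differed between the lines for TYMS, at -0.31 (0.0457), a call lost without the mean-variance trend. ENOSF1, which shares 39.1% of the exonic bases of TYMS, was also lower in 7.5% than in 5% GelMA in PANC1, at -0.43 (0.00143). Calls of MCM10, GINS4, PRIM1 and CDC25A were lost without 1 library, as given beside their values above.

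Some of the genes described from the other lists passed the same test, while GMNN, POLD4, NASP, DNMT1, EXO1, CENPE, AURKB, E2F2, TFDP1, CDKN1A and CDKN1C did not. In licensing and the fork the values were -0.31 for MCMBP (0.00376), 0.30 for CLSPN (0.0294) and -0.37 for DSCC1 (0.0159). In nucleotide supply they were 0.26 for RRM2 (0.0252), -0.56 for IMPDH2 (5.72e-05) and -0.29 for UMPS (0.00388). HELLS differed by 0.32 (0.0222) and BRCA1 by -0.49 (0.00579). Among regulators the values were 0.42 for CDK6 (0.000711), -1.56 for CCND2 (0.00288), 0.14 for RBL2 (0.0493) and 0.18 for CDKN1B (0.0215), and CCNB2 of mitosis differed by -0.30 (0.00936). The CCND2 value averages both percentages, and in PANC1 CCND2 was lower than in collagen in 5% GelMA and not in 7.5% GelMA (0.05, 0.873).

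Outside cell division, the hypoxia genes CA9 and SLC2A3 differed by 3.01 (0.00237) for CA9 and -4.68 (5.30e-05) for SLC2A3, with both lower in GelMA in each line. These values average both percentages. In PANC1 CA9 was lower in 7.5% than in 5% GelMA, at -4.84. Set against collagen in BXPC3, CA9 differed by -6.99 in 5% GelMA and -6.96 in 7.5% GelMA. The effect of the percentage on CA9 differed between the lines by -4.88. MT-ND3, a mitochondrially encoded gene, differed by 0.97 (2.14e-05). The ribosomal protein genes RPL27 and RPSA differed by -0.68 (4.00e-05) for RPL27 and -0.25 (0.00297) for RPSA.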

How the results depend on the processing

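No depth is known, and 2 libraries a group limit each value. Over 22 settings, 100 effects of named genes gave 2080 alternative values. Of these, 46 fell short of the threshold they had passed (42 of them with a library left out) and 15 newly passed it. Among effects that passed the threshold as reported or in the alternative, 0 changed sign. Changes of sign in effects that passed in neither were not counted. Only effects that passed the threshold as reported could fall short of it, so the count of 46 is not a rate over all 2080 values. POLD1, PRIM1, GINS4 and MCM6 were not among the genes counted here. No pairing by replicate number was seen in the values: deviations of libraries with the same number correlated between -0.048 and 0.077 over 15 pairs of groups, and 0 exceeded 0.1. How the cultures were set up cannot be read from these correlations. With the replicate block, 1 of these effects changed its call, MCM5 in 7.5% against 5% GelMA in PANC1 (adjusted p = 0.063).

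Counts of called genes among the 39 moved as follows when each of the 12 libraries was left out in turn. For GelMA against collagen in PANC1 the higher count lay between 16 and 18 and the lower between 3 and 4, and in BXPC3 between 23 and 32 higher and 0 and 2 lower, 2 of them without BXPC3 5% GelMA replicate 2. For the difference between the lines the ranges were 0 to 2 higher and 8 to 13 lower. For 7.5% against 5% GelMA they were 0 to 7 in PANC1, against 5 with all libraries, and 0 to 0 in BXPC3, and for the difference in the percentage effect 0 to 4, against 1. For 5% GelMA against collagen they were 12 to 22 in PANC1, lowest without 5% GelMA replicate 1, and 13 to 24 in BXPC3, lowest without 5% GelMA replicate 2. For 7.5% GelMA they were 16 to 21 in PANC1 and 15 to 29 in BXPC3, lowest without 7.5% GelMA replicate 2. PANC1 against BXPC3 gave 33 to 36. Without the mean-variance trend, 7.5% against 5% GelMA in PANC1 had 3 calls and the difference in the percentage effect 0. The causes of these shifts were not tested beyond the smaller number of libraries. In GelMA against collagen, 16 of 22 calls in PANC1 and 18 of 29 in BXPC3 were kept in all 12 repeats, as were 7 of 11 for the difference between the lines. Over all genes tested, calls for GelMA against collagen in BXPC3 numbered 5703, or 3623 without BXPC3 collagen replicate 2, and calls for 7.5% against 5% GelMA numbered 2956 in PANC1, or 1449 to 1746 without any 1 of its 4 GelMA libraries, and 13 in BXPC3, or 1 to 33 without any 1 of the 12.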
